A study of Mus musculus with 4 samples.

Results

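The ETS factors of blood cells were examined in 4 samples of sorted preproB cells: Spi1 (listed under its older name Sfpi1), Spib, Erg, Fli1, Ets1, Ets2, Elf1, Elf4, Etv6 and Gabpa. These 10 genes were chosen by name, out of 31651 names on the array, and they were read by 14 probes out of 39429. Erg, Ets1, Elf1 and Gabpa had 2 probes each and the other members 1. No spot of these probes carried an outlier flag on any array.

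PreproB cells are the earliest marrow cells set towards the B lineage, and here they were lineage-negative, B220+, CD43+, BP1- and CD24- marrow cells of C57BL/6 mice. Every mouse carried loxP sites around the +37 kb enhancer of Cebpa, which encodes the myeloid factor C/EBPα, and every mouse received 3 doses of pIpC, an interferon-inducing double-stranded RNA, 5 weeks before the cells were taken. The control group (n = 2) had no Cre, and the EnhDel group (n = 2) also carried Mx1-Cre, a recombinase switched on by interferon in many cell types besides preproB cells. Enhancer loss and the presence of Cre therefore cannot be told apart. The labels give control replicate 1 as female and 26 weeks old, and control replicate 2 and both EnhDel samples as males of 24 weeks. Each sample was read on 1 single-colour array. The labels do not say whether a sample was 1 animal or a pool, so what the p-values measure is the spread among these 4 samples, which may be technical.

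ETS factors share a DNA-binding domain, the ETS domain, which contacts a GGAA core in the DNA. PU.1, encoded by Spi1, is needed for early lymphoid and myeloid cells, and its relative Spi-B is a factor of plasmacytoid dendritic cells and B cells. Erg and Fli1 are close relatives that maintain stem and progenitor cells and act in megakaryocytes and endothelium. Ets1 and Ets2 form another related pair, as do Elf1 and Elf4, Etv6 is a repressor needed by stem cells in the marrow, and GABPα, encoded by Gabpa, drives housekeeping genes with its partner GABPβ.

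Between 59.6% and 64.9% of probes per array stood well above background, and saturated spots numbered 0. Cebpa signal was 1271 and 927 in the controls and 125 and 287 in the EnhDel samples. Between the 2 EnhDel arrays the log2 differences over genes had an SD of 0.611, against 0.333 between the 2 control arrays. Sex-linked genes went against the labels on 2 arrays. The library labelled control replicate 1, a female, had no Xist probe well above background and a Ddx3y signal of 3116. The library labelled EnhDel replicate 2, a male, had Xist signals of 1551 and 597 beside a Ddx3y signal of 1560, against 3474 and 3624 on the other arrays labelled male. Differences are therefore also given without these arrays. Of the gate genes, Ptprc (whose products include the B220 form) and Spn (CD43) were well above background on every array and Enpep (BP1) on none. Cd24a, the gene of CD24, was well above background on all 4.

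Upstream sequences are shown for Erg and Elf4, the members with the lowest unadjusted p, because the letters that ETS factors bind can be seen in them. The 250 bases before each start site come from RefSeq (build GRCm38.p6), in which 7 of the 10 members had 11 starts in all. Spi1, Fli1 and Ets1 had no entry. Capitals mark GGAA on either strand, which reads TTCC on the other one.

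Erg start 1, chr16:95586594-95586843, minus strand: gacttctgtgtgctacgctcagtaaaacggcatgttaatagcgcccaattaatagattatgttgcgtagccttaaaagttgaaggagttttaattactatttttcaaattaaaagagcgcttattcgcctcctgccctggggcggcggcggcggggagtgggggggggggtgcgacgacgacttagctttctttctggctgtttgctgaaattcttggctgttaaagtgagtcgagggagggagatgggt
Erg start 2, chr16:95530366-95530615, minus strand: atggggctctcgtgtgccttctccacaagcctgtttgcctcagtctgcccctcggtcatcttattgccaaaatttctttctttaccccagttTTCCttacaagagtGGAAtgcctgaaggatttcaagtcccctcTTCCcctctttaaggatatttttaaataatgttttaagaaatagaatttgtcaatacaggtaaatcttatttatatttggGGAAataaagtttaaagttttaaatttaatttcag
Erg start 3, chr16:95459349-95459598, minus strand: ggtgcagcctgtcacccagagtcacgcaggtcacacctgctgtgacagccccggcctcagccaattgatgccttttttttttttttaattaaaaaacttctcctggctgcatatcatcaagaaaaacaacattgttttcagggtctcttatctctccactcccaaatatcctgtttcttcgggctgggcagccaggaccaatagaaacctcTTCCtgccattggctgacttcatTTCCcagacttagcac
Elf4 start 1, chrX:48463133-48463382, minus strand: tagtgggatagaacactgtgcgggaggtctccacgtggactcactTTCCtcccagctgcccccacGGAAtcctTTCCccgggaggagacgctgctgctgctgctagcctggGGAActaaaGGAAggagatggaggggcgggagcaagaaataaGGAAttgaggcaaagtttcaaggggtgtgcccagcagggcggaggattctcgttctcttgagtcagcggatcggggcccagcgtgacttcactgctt
Elf4 start 2, chrX:48454320-48454569, minus strand: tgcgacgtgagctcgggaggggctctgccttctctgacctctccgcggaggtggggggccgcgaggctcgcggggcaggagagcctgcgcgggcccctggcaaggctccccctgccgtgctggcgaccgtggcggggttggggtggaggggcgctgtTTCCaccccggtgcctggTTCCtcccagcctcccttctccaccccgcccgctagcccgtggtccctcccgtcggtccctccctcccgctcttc

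GGAA was present in 9 of the 11 member windows and in 93.4% of the 32851 windows of all genes. The Erg windows held 0, 4 and 2 matches and the Elf4 windows 6 and 2. A longer form favoured by PU.1, GAGGAA, which contains GGAA, was found in 3 of 11 windows (both of Elf4 and that of Gabpa) against 23.3% of all windows, and CCGGAA in 1 of 11 (Gabpa) against 12.0%. A C/EBP-type motif, TTNNGNAA on either strand, was found in 4 of 11 windows, those of Spib and Etv6 and the first and second of Erg, against 36.8% of all. These matches describe letters only.

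Erg was lower in the EnhDel samples on each of its 2 probes. The brighter probe, at chr16:95581954-95582013 in build mm9 and starting at base 2011 of the transcript, had signals of 111 and 173 in the controls and of 27.5 and 16.6 in the EnhDel samples, after subtraction of the background. Neither EnhDel value reached the control values, and the gap between the groups was wider than the gap within either. On the log2 scale, relative to each array's 75th percentile, the values were -3.20 and -2.71 against -5.14 and -5.97. The difference was -2.60 ± 0.36 (SE, n = 2 per group; 95% interval -3.56 to -1.64), or 6.06-fold lower, with an unadjusted p of 0.00135 and an adjusted p of 0.195 (Benjamini-Hochberg) in limma's fit over 19393 genes. Erg therefore did not pass the threshold of 0.05, and neither did any other gene (0% of genes). Of all genes tested, 0.351% had a lower difference.

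The other Erg probe, 83 bases away at chr16:95581811-95581870, read the same end of the transcript. Its signals were 44.8 and 24.6 in the controls and 3.97 and 2.98 in the EnhDel samples. It was well above background on both control arrays and on neither EnhDel array, so its difference has only a bound, at least 2.52-fold lower, set against the lowest signals of single spots well above background on the EnhDel arrays. Before any subtraction, the mean spot signal of the brighter probe was 167 and 222 in the controls and 71.3 and 60.4 in the EnhDel samples, over a local background of 25 to 35. The groups were thus apart in the raw signal too, while the EnhDel spots came close to background.

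**Figure D1:**
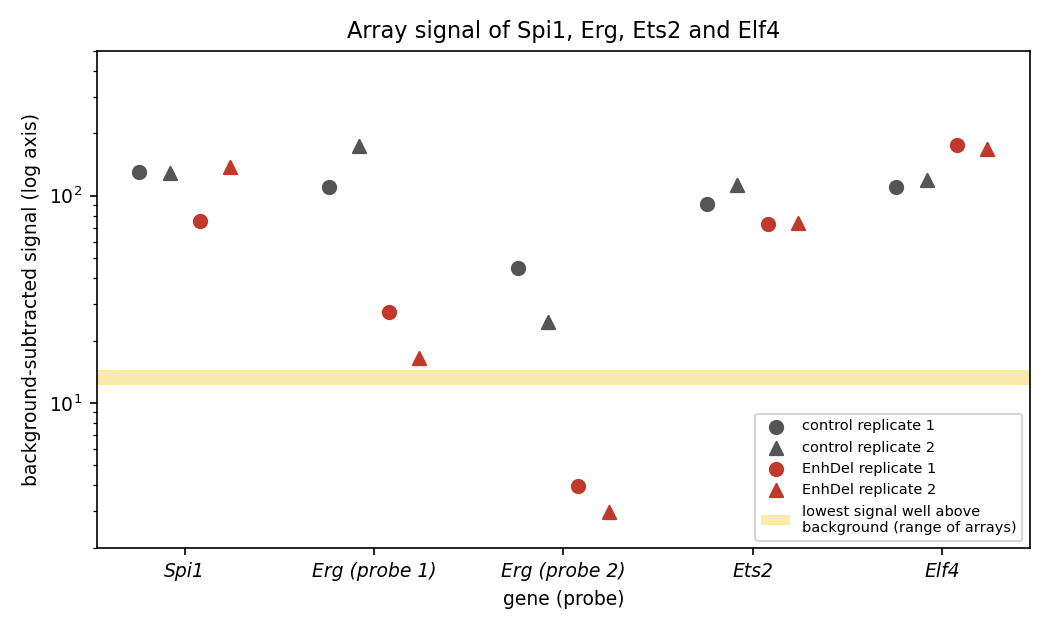
Background-subtracted signal (log axis) of the probes of Spi1, Erg, Ets2 and Elf4 on each array, grey for control and red for EnhDel, circles for replicate 1 and triangles for replicate 2. The yellow band spans the lowest signals well above background on the 4 arrays, 12.2 to 14.4; the second Erg probe lies under it on both EnhDel arrays, and levels of different probes are not comparable.

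The size of the Erg difference depended on how background was handled. In the authors' deposited table, which tracked the median spot signal before background subtraction and averaged a gene's probes, Erg stood at 6.9 on both control arrays and at 5.9 and 5.6 on the EnhDel arrays, a difference of -1.15. Normexp, a model-based background correction, was used with an offset of 50 added to every signal, which by itself shrinks differences between dim signals. With it, the Erg difference was -1.14 when 6 spots of very high local background were repaired and -0.07 when they were not. Without EnhDel replicate 2 it was -2.18 and without control replicate 1 it was -2.84. Without EnhDel replicate 1 it was -3.02 and passed, at an adjusted p of 0.0265 in limma, in a fit that called 3014 genes, so the call is not particular to Erg; over all 16 alternatives the adjusted p ranged from 0.0265 to 0.967. In bulk RNA, fewer cells with Erg and less Erg RNA per cell cannot be told apart.

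Marker lists of other cells that are known to carry Erg were read beside it. The summed level of 8 megakaryocyte and platelet genes, in multiples of each array's 75th percentile, was 8.57 and 8.50 in the controls and 8.71 and 7.71 in the EnhDel samples. That of 6 endothelial genes was 12.9 and 8.71 against 14.4 and 12.8, with Tek, Tie1 and Emcn not well above background on any array. That of 8 stem and progenitor genes was higher in the EnhDel samples, 19.1 and 23.3 against 55.8 and 75.6, and most of this sum was Ly6a (Sca-1), an interferon-responsive gene. The megakaryocyte and endothelial sums overlapped between the groups, but each rests mostly on 1 bright gene, Itgb3 and Cdh5. Gene by gene, 7 of the 8 megakaryocyte and platelet genes were higher in the EnhDel samples (median difference 0.76), with Ppbp at 37.1 and 20.2 in the controls against 71.2 and 77.9. All 6 endothelial genes were higher too (median 0.29), and 4 of the 8 stem and progenitor genes (median 0.07). These counts include genes not well above background on any array, whose direction was not measured: Gp1ba, Tek, Tie1, Emcn and Mecom. Itga2b and Gp9 were well above background on only 2 arrays. The part of these cells in the Erg result was not tested.

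Fli1, the closest relative of Erg, was at nearly equal levels in the groups. Its signals were 3749 and 3968 in the controls and 3686 and 3126 in the EnhDel samples. The log2 values overlapped, and the difference was -0.09 ± 0.19 (SE, n = 2 per group; 95% interval -0.58 to 0.41; adjusted p = 0.883 in limma). It was 0.08 without EnhDel replicate 2. The interval of Fli1 lies above that of Erg (-3.56 to -1.64) with no overlap, but the difference between the genes was not tested.

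Erg and Ets2 are neighbours on chromosome 16 and Fli1 and Ets1 on chromosome 9, with probes 360 kb and 335 kb apart. Ets2, an ETS factor that acts downstream of Ras signals, had signals of 91.2 and 112 in the controls and of 73.2 and 73.7 in the EnhDel samples. Both EnhDel values were lower, by less than the Erg values were. The log2 difference was -0.36 ± 0.15 (SE, n = 2 per group; 95% interval -0.77 to 0.05; adjusted p = 0.489 in limma), and it was 0.63 with the unrepaired normexp. Ets1, needed for lymphocyte function, had signals of 3148 and 3826 in the controls and 2713 and 3365 in the EnhDel samples on its brighter probe, and 3210, 3440, 3029 and 2918 on the other, in the same order. The log2 values of the groups overlapped on both probes, with differences of -0.10 ± 0.16 (95% interval -0.55 to 0.34; adjusted p = 0.848 in limma) and -0.06 ± 0.15 (SE, n = 2 per group). The probes start at bases 4514 and 1480 of the transcript, and gave like values.

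**Figure D2:**
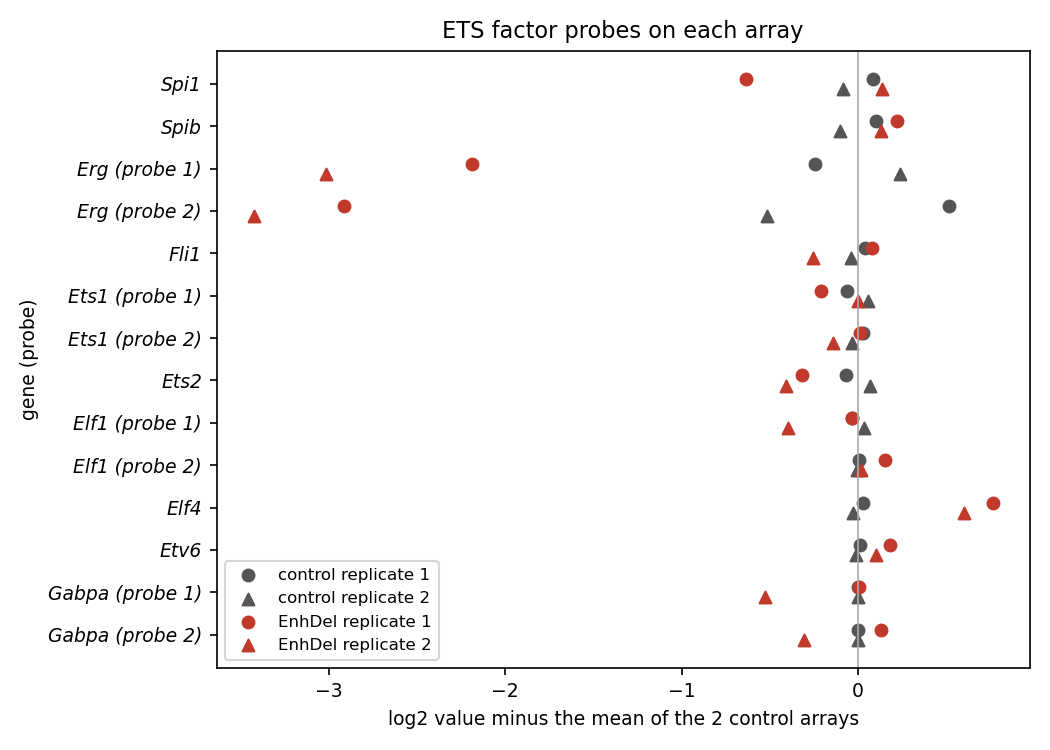
Log2 value of each of the 14 probes on each array minus the mean of the 2 control arrays, with grey for control, red for EnhDel, circles for replicate 1 and triangles for replicate 2. The brighter Erg probe stands at -2.18 and -3.02 on the EnhDel arrays, Elf4 at 0.60 and 0.76, and Spi1 is lower on EnhDel replicate 1 alone. The second Erg probe was well above background on neither EnhDel array, so how low it lies there was not measured.

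Spi1 was read by 1 probe, shown because it lies near the start of the transcript, at base 275, and carries the whole of what these arrays say about PU.1. Its 60 bases map to chr2:90939665-90953452 in mm9, a span of 13788 bases, so it crosses at least 1 splice junction and reads spliced RNA. It is printed in lower case with no part marked.

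Spi1 probe: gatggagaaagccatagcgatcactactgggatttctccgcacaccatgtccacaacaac

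Spi1 signal was 130 and 129 in the controls and 75.2 and 137 in the EnhDel samples. Replicate 1 of the EnhDel group was the lowest array and replicate 2 the highest, so the groups overlapped. The log2 difference was -0.25 ± 0.30 (SE, n = 2 per group; 95% interval -1.06 to 0.57; adjusted p = 0.801 in limma), and the SD was 0.54 within the EnhDel group against 0.12 within the controls. The interval includes differences of either sign, so a difference of moderate size was not detectable with these arrays. The difference was -0.63 without EnhDel replicate 2 and 0.14 without EnhDel replicate 1, each a comparison with a lone EnhDel array, and 0.66 with the unrepaired normexp. A probe near the start of a transcript can be sensitive to RNA quality. Over 1581 accessions with probes at least 1000 bases apart, the median of the upstream minus the downstream log2 value was -1.48 and -1.59 in the controls and -1.51 and -1.55 in the EnhDel samples, and these ranges overlapped.

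Spib, the relative of Spi1, had signals of 87372 and 84914 in the controls and 90657 and 91087 in the EnhDel samples. Both EnhDel values were above both control values, by less than the uncertainty of the fit. The log2 difference was 0.18 ± 0.16 (SE, n = 2 per group; 95% interval -0.26 to 0.61; adjusted p = 0.739 in limma). It became -0.0004 with median scaling, which lowered the median of all genes from 0.06 to -0.12. Plasmacytoid dendritic cells are another cell type than the labelled one. All 13 markers listed for them, Siglech and Bst2 among them, were well above background on every array, but these markers need not be particular to that type. Their summed level was 1107 and 1005 in the controls and 1083 and 1011 in the EnhDel samples, and it overlapped between the groups. The part of such cells in the Spib signal was not tested.

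Elf4, which restrains proliferation of CD8 T cells, was higher in the EnhDel samples. Its signals were 111 and 119 in the controls and 176 and 168 in the EnhDel samples. Each group was tight and the groups were apart. The log2 difference was 0.68 ± 0.15 (SE, n = 2 per group; 95% interval 0.26 to 1.10), or 1.60-fold, with an unadjusted p of 0.0097 and an adjusted p of 0.305 in limma. It stayed positive in all 16 alternatives, from 0.51 with median scaling to 1.01 with the unrepaired normexp, and it was 0.55 in the authors' deposited table. Over the alternatives that kept all 4 arrays, its adjusted p in limma ranged from 0.298 to 0.537. Elf4 lies on the X chromosome (probe at chrX:45766658-45766717 in mm9), and the difference was 0.76 without EnhDel replicate 2, the array with Xist signal, and 0.71 without control replicate 1. The summed level of 11 T cell genes was 21.2 and 18.9 in the controls and 30.4 and 36.6 in the EnhDel samples. Cd4 was the brightest of these genes on every array, at 8914 and 8801 in the controls and 14430 and 28070 in the EnhDel samples. Of the 11, 7 were higher in the EnhDel samples and 4 lower (median 0.50). Lck, Lat, Zap70 and Thy1 were lowest on EnhDel replicate 2. The part of T cells in the Elf4 result was not tested.

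Elf1, which activates genes of T and B cells, gave opposite small differences on its 2 probes. On the brighter one, at base 3928 of the transcript, signals were 7337 and 8604 in the controls and 7004 and 5838 in the EnhDel samples. On the other, at base 1867, they were 291, 323, 308 and 300.2 in the same order. EnhDel was lower on the first and slightly higher on the second after scaling, at -0.22 ± 0.19 (95% interval -0.73 to 0.30; adjusted p = 0.728 in limma) and 0.08 ± 0.15 (SE, n = 2 per group). Without EnhDel replicate 2 the first was -0.03. The interval of the first probe includes 0.

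Etv6 had signals of 2106 and 2323 in the controls and 2269 and 2293 in the EnhDel samples. After scaling both EnhDel values were slightly above both control values. The log2 difference was 0.14 ± 0.15 (SE, n = 2 per group; 95% interval -0.25 to 0.54; adjusted p = 0.761 in limma), and it was -0.03 with median scaling.

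Gabpa had signals of 1383 and 1548 in the controls and 1328 and 981 in the EnhDel samples on its brighter probe, and 433, 485, 453 and 359 in the same order on the other. EnhDel replicate 2 alone was low on both probes, and the groups overlapped. The log2 differences were -0.26 ± 0.23 (95% interval -0.88 to 0.36; adjusted p = 0.731 in limma) and -0.09 ± 0.20 (SE, n = 2 per group). The first was 0.01 without EnhDel replicate 2 and -0.53 without EnhDel replicate 1.

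**Figure D3:**
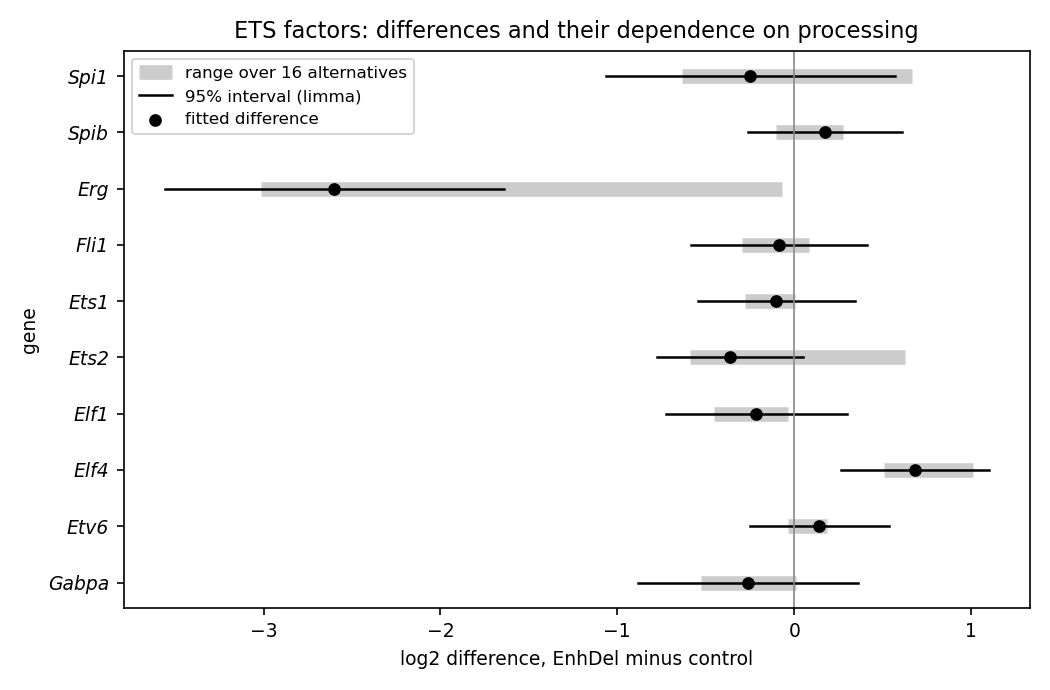
Fitted log2 difference (EnhDel minus control) of each ETS factor, with the 95% interval from limma as a black line and the range over 16 alternative processings as a grey bar. Only the intervals of Erg (-3.56 to -1.64) and Elf4 (0.26 to 1.10) exclude 0, and the grey bar of Erg reaches -0.07.

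Among the 10 members, 7 were lower and 3 higher in the EnhDel samples, against 41.6% lower among all genes tested, with a median of -0.16 against 0.06 over all genes. A difference of at least 2-fold was reached by 1 of 10, Erg, against 6.29% of all genes. By limma, 2 of 10 had an unadjusted p under 0.05, Erg lower and Elf4 higher, against 11% of all genes (4.17% lower and 6.84% higher), and 0 of 10 had an adjusted p under 0.05, against 0%. The groups did not overlap in 6 of 10, 3 in each direction, against 43.9% of all genes (16.7% lower and 27.2% higher). With 10 genes, these shares stand near the background. All 10 brightest probes were well above background on all 4 arrays. The members' median was -0.33 with median scaling and -0.01 without EnhDel replicate 2. Without control replicate 1, the array labelled female, Spi1 stood at -0.16, Spib at 0.28, Fli1 at -0.05, Ets1 at -0.16, Ets2 at -0.43, Elf1 at -0.25, Etv6 at 0.15 and Gabpa at -0.26, each with the sign it had with all arrays. Without EnhDel replicate 2, the array with Xist signal, Spib stood at 0.22, Ets1 at -0.21, Ets2 at -0.32 and Etv6 at 0.18.

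**Figure D4:**
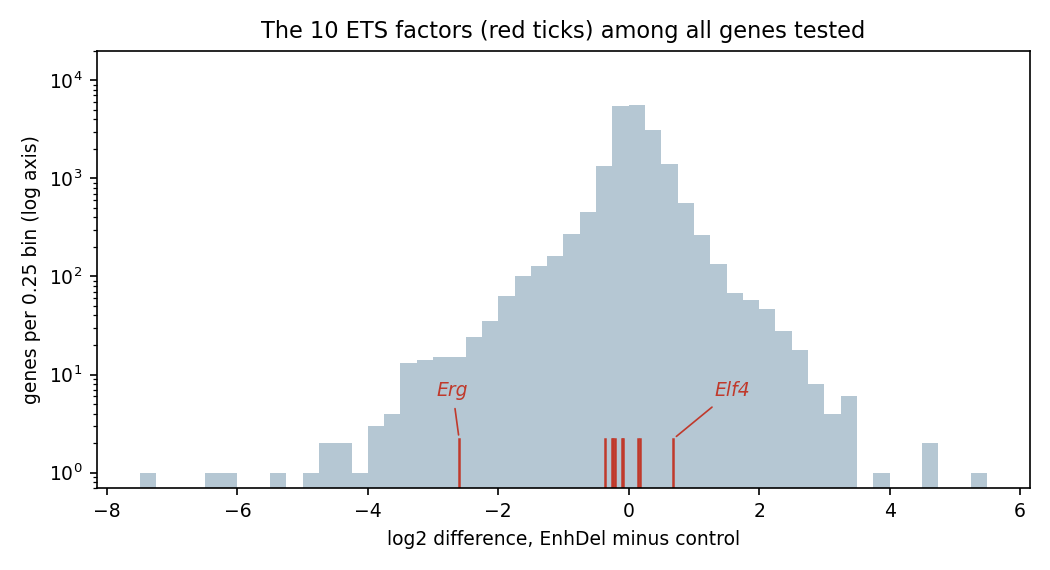
Histogram of the log2 difference (EnhDel minus control) of all 19393 genes tested, in bins of 0.25 on a log count axis, with red ticks for the 10 ETS factors. Erg at -2.60 stands apart in the lower tail, Elf4 at 0.68 is the highest, and the other members lie between -0.36 and 0.18.

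The rest of the ETS family held 16 genes, 12 of them tested. Elf3, Elf5 and Etv2 were well above background on no array and Ehf on 1. Of the 12, 7 were lower and 5 higher, with a median of -0.08, 2 had an unadjusted p under 0.05 in limma (16.7%, against 11% of all genes), and 0 an adjusted p under 0.05. Etv1 had signals of 1014 and 1006 in the controls and 563 and 498 in the EnhDel samples, a log2 difference of -0.83 ± 0.18 (SE; -0.40 in the authors' deposited table). Etv5, a close relative of Etv1 that responds to receptor tyrosine kinases, had signals of 2474 and 2533 against 1531 and 642. Its difference was -1.24 ± 0.48, with EnhDel replicate 2 the lowest array, and -0.56 without that array. Fev differed by 0.64 ± 0.17 and Etv3 by 0.29 ± 0.15 (SE, n = 2 per group), with adjusted p of 0.346 and 0.562 in limma. Both EnhDel values were above both control values in each.

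Stem-cell genes known to be bound by Erg and Fli1 differed in both directions. Of 18 listed, 16 were tested, each well above background on all 4 arrays; Tek and Mecom were well above background on none. By limma, 10 of 16 (62.5%) had an unadjusted p under 0.05, 6 lower and 4 higher, against 11% of all genes, and 0 of 16 an adjusted p under 0.05. The median was -0.27 (-0.15 without EnhDel replicate 2, -0.07 with the repaired normexp and -0.02 with no filter on dim probes). Lyl1, a basic helix-loop-helix partner of Erg in stem cells, had signals of 7000 and 8034 in the controls and 3376 and 3219 in the EnhDel samples. Its difference was -1.09 ± 0.15 (SE, n = 2 per group; adjusted p = 0.195 in limma). Runx1 and the receptor gene Kit differed by -0.86 ± 0.15 and -0.78 ± 0.14, with adjusted p of 0.234 and 0.244, and Kit by -0.24 with the unrepaired normexp. Tal1, the relative of Lyl1, differed the other way, with signals of 39.96 and 45.8 against 128 and 92.1 and a difference of 1.44 ± 0.24 (0.75 in the authors' deposited table). Tal1 also acts in red cell precursors. All 6 erythroid markers on the array were higher in the EnhDel samples (median 1.95), with summed levels of 0.225 and 0.633 in the controls and 0.909 and 1.30 in the EnhDel samples, and their part in the Tal1 value was not tested.

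**Figure D5:**
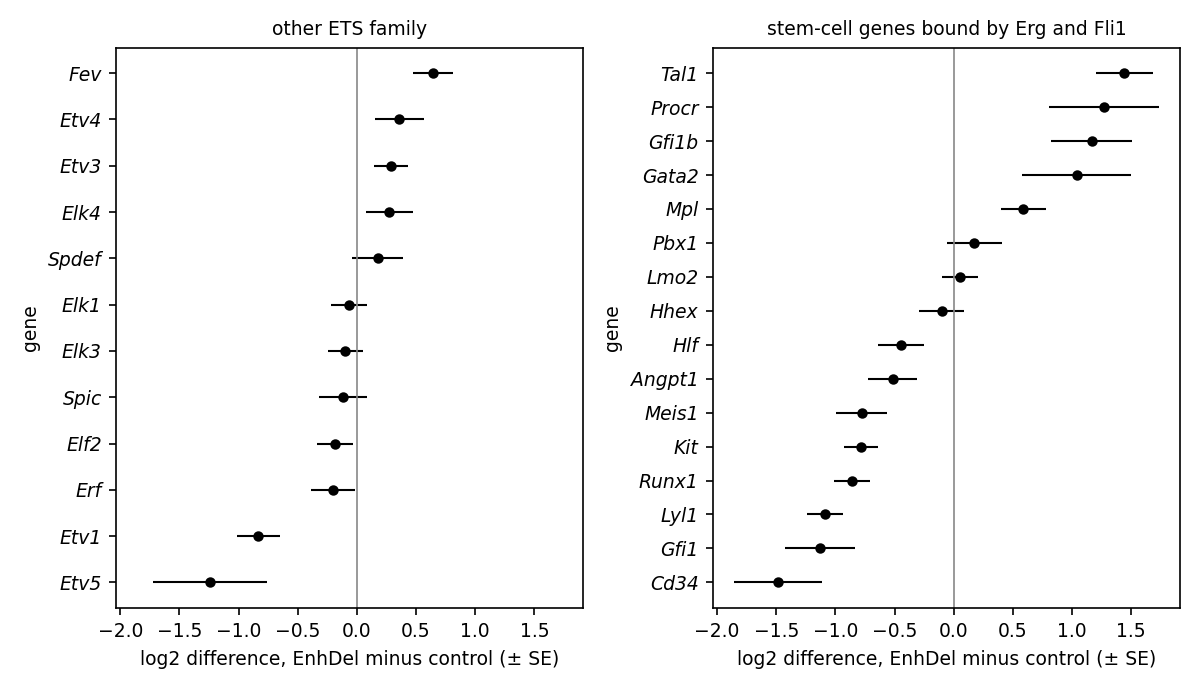
Log2 difference (EnhDel minus control, points) with its SE (bars, n = 2 per group) for the tested genes of the other ETS family (left) and of the stem-cell genes bound by Erg and Fli1 (right). Etv5 and Etv1 are the lowest of the family at -1.24 and -0.83, and the stem-cell genes spread from -1.48 (Cd34) to 1.44 (Tal1).

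Partners of ETS factors had 18 of 19 genes tested, 9 lower and 9 higher, with a median of -0.02. By limma, 3 were lower and 3 higher at an unadjusted p under 0.05 (33.3%, against 11% of all genes) and 0 at an adjusted p under 0.05. Lyl1, Tal1, Runx1 and Cebpa had the lowest p. Lyl1, Tal1, Runx1, Gata2 and Lmo2 are also among the stem-cell genes above, so the shares of these lists are not separate results. Cebpa, whose protein works with PU.1 on myeloid genes, differed by -2.42 ± 0.45 (SE, n = 2 per group; -1.40 with the unrepaired normexp). Pax5 was well above background on at most 1 array.

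Myeloid targets of PU.1 had 24 genes tested, 22 of them well above background on all 4 arrays, with 13 lower and 11 higher and a median of -0.03. By limma, 4 were lower and 1 higher at an unadjusted p under 0.05 (20.8%, against 11% of all genes), and 0 at an adjusted p under 0.05. The lysozyme gene Lyz2, a near copy of Lyz1, had signals of 141 and 76.5 in the controls and did not stand well above background with EnhDel, where its signals were 7.02 and 12.8, which gives a bound of at least 7.70-fold lower. Csf1r, the M-CSF receptor gene and a classical PU.1 target, had signals on its brightest probe of 3597 and 3757 in the controls and 734 and 1647 in the EnhDel samples. Its difference on that probe was -1.64 ± 0.39 (SE). With the mean of its probes it was -0.52, and it was -0.45 in the authors' deposited table, so the probes of Csf1r did not give like differences. Elane, the neutrophil elastase gene, differed by -1.06 ± 0.35 (-0.59 without EnhDel replicate 1). The summed level of 9 monocyte and macrophage markers, Csf1r and Lyz2 among them, was 14.9 and 12.6 in the controls and 4.98 and 4.88 in the EnhDel samples, and its part in these values was not tested. Spi1 itself lay within its spread, as given above.

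B-lineage targets of PU.1 and Spi-B had 20 genes tested, 19 of them well above background on all 4 arrays, with 13 lower and 7 higher and a median of -0.64 (-0.22 without EnhDel replicate 2). By limma, 9 were lower and 0 higher at an unadjusted p under 0.05 (45%, against 11% of all genes, 4.17% lower and 6.84% higher), and 0 at an adjusted p under 0.05. Ebf1, which specifies the B lineage, had signals of 391.8 and 659 in the controls and 146 and 59.5 in the EnhDel samples, a difference of -2.35 ± 0.53 (SE; -1.13 with the unrepaired normexp). Igll1, of the surrogate light chain, had signals of 1370 and 2600 against 365 and 75.5, a difference of -3.41 ± 0.86 (-2.22 without EnhDel replicate 2). Cd79a, of the B-cell receptor complex, differed by -0.80 ± 0.19 (SE, n = 2 per group). The summed level of 14 early B-lineage markers was 187 and 186 in the controls and 176 and 142 in the EnhDel samples, and most of it was Blnk and Dntt. Of the 14, 11 were lower in the EnhDel samples, with a median of -0.98, Vpreb1 for instance at 14280 and 23540 against 4710 and 889. The part of such cells in these values was not tested, and Igll1, Ebf1 and Cd79a are in both lists.

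The profiles most like those of Erg and Spi1 were found by the root mean square distance over the 4 arrays between log2 values with each gene's mean taken off, among 13296 named genes. For Erg the nearest were Csgalnact1, a chondroitin sulfate synthesis enzyme (distance 0.14), and the calponin genes Cnn3 (0.20) and Cnn1 (0.20). Cnn3 was well above background on every array and differed by -2.94 ± 0.42 (SE, n = 2 per group). Csgalnact1 was well above background on neither EnhDel array, which gives a bound of at least 4.44-fold lower, and Cnn1 on 1 of them, so their distances to Erg rest partly on values that were not measured. For Spi1 the nearest were Dok4 (0.05), Pros1 (0.06) and Klk1b9 (0.06), with differences of -0.21 ± 0.26, -0.34 ± 0.28 and -0.33 ± 0.28, each low on EnhDel replicate 1 alone. With the unrepaired normexp, Csgalnact1 and Cnn1 changed sign, as did the 3 genes nearest to Spi1.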

How the data were processed

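Array data from 4 samples were used. The authors deposited 1 scanner file per sample which, per the file headers, holds the intensity of 44397 spots per array from Agilent Feature Extraction 10.7.3.1, with positions in mm9. The authors also deposited a log2 table of 31597 rows with 1 decimal, for which the sources used here name no steps; its columns share a median of 6.5, and for 98.9% of values of genes with 2 probes it lay within 0.2 of the mean log2 median signal of the probes, after centring.

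Control and flagged spots were left out, log2 processed signals were scaled to each array's 75th percentile, and each gene was read from the probe with the highest mean. RefSeq accessions (GRCm38.p6) named 26684 probes; the members were taken by the name in the files. A gene entered the test if 1 group had its probe well above background, in at least 1 spot, on both of its arrays. The test was lmFit and eBayes of limma 3.58.1 (R 4.3.3), with Benjamini-Hochberg adjustment over 19393 genes and a threshold of 0.05; differences are EnhDel minus control. The SE and p of a second probe come from the same fit over 24289 probes. The fit was tested on simulated data in which both groups had the same spread, unlike in these arrays. Precision is limited by how few arrays there are.

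The genes named are the members, up to 4 tested genes of each list by p, and the 3 nearest profiles of Erg and Spi1; some genes that this rule names are not reported here. The lists were written from general knowledge. The members and lists were chosen with earlier results of these data known, so they are not independent evidence. The alternatives were normexp (offset 50, with and without repair of 6 spots whose local background exceeded 5 times the median), quantile, median and cyclic loess scaling, other filters and probe rules, another variance model, the deposited table, a replicate block, and each array left out.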

Additional observations from a re-analysis of the deposited data

How the results depend on the processing

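Of 160 recomputed member differences (10 genes under 16 alternatives), 149 kept their direction and their side of the threshold, 10 changed sign and 1 passed the threshold. Erg, Elf1 and Elf4 kept their sign in all 16. With the unrepaired normexp, Spi1 was 0.66, Spib -0.10, Ets2 0.63 and Etv6 -0.0279, the second probes of Erg and Gabpa 0.84 and 0.17, Lyz2 0.23, Csgalnact1 0.50, Cnn1 0.49, Dok4 0.38, Pros1 0.61 and Klk1b9 0.86; this setting moved the median of all genes from 0.06 to 0.205. With median scaling Spib was -0.0004, Etv6 -0.0329 and the second probe of Elf1 -0.0906, which was -0.0176 with cyclic loess. Leaving out 1 array gave ranges of -0.63 to 0.14 for Spi1, 0.07 to 0.28 for Spib, -3.02 to -2.18 for Erg, -0.26 to 0.0826 for Fli1, -0.21 to 0.0035 for Ets1, -0.43 to -0.30 for Ets2, -0.40 to -0.03 for Elf1, 0.60 to 0.76 for Elf4, 0.10 to 0.18 for Etv6 and -0.53 to 0.0088 for Gabpa. The second probes gave -0.14 to 0.0143 for Ets1 and -0.30 to 0.13 for Gabpa, and the genes nearest to Spi1 gave -0.52 to 0.11 for Dok4, -0.70 to 0.02 for Pros1 and -0.66 to 0.0016 for Klk1b9. The cause of these changes was not tested.

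The count of genes past limma's threshold was 0 (2134 at an unadjusted p under 0.05, and 1212 with the unrepaired normexp) and 26 with median scaling. Leaving out 1 array gave 0 to 3014. It was 3014 when EnhDel replicate 1 was left out and 78 for EnhDel replicate 2, while control replicates 1 and 2 gave 0 and 3. Each of these fits has a lone array in 1 group, so its spread comes from the other group alone, and its count cannot be set against the others. With the replicate number as a block the count was 0, with 1934 genes at an unadjusted p under 0.05 in limma, and the adjusted p of Erg was 0.328. Samples with the same number share only the number: their deviations from the group means correlated at -0.02 over genes. Beside Erg, the genes Etv1, Etv5, Lyl1, Tal1, Runx1, Kit, Cebpa, Lyz2, Ebf1, Igll1, Csgalnact1, Cnn3 and Cnn1 passed in that fit of 3014 genes and in no other, and Csf1r in that one and in the one that left out EnhDel replicate 2. Signals below 12.2 to 14.4 could not be measured, which limits the second Erg probe.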

Other observations

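No tested neighbour of Erg differed by as much in the lower direction. Within 1000 kb of the Erg probe on chromosome 16 (mm9), 19 other genes were tested, 11 lower and 8 higher in the EnhDel samples. Among all genes tested, 41.6% were lower. The median difference of the 19 was -0.03, with a range of -0.42 to 1.93. By limma, 2 of the 19 had an unadjusted p under 0.05, with differences of 1.93 and -0.42, against 11% of all genes tested. A shared change of the region was not tested. This window was chosen after the values of Erg were known.

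A further probe, whose description in the files names a partial ETV6 transcript but whose gene name is a transcript accession, was not counted as a member. Its signals were 6.44 and 7.01 in the controls and 7.20 and 9.31 in the EnhDel samples, not well above background on any array.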
